A study of Mus musculus with 8 samples.

Results

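The metalloproteinases and their inhibitors were taken as every gene on the array whose name in the scanner files starts with Mmp, Timp, Adam or Adamts and a number, or with Adamtsl. This gave 75 of 27962 gene names, carried by 130 of 41174 probes and by 139 of 43379 spots. They were 21 matrix metalloproteinases (MMPs), 4 tissue inhibitors of metalloproteinases (TIMPs), 28 ADAMs, 17 ADAMTS genes and 5 ADAMTS-like genes. Each gene was read by its brightest probe by mean log2 signal, and levels are never set against those of another gene, because probes differ in brightness.

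RNA came from oviducts of CD-1 mice that had been injected subcutaneously on postnatal days (PND) 1 to 5 with corn oil (control, dose 0) or with the phytoestrogen genistein (Gen) at 50 mg/kg/day. At 6 to 8 weeks of age all of them were superovulated and mated, so that hormone priming was shared by both groups. Oviducts were collected on gestation day 2 (GD2), 48 hr after human chorionic gonadotropin (hCG), with the embryos removed. For the arrays, the study's methods do not say how many mice made up a replicate. Each of the 8 arrays, 4 per group, held 1 dye and 1 replicate, which the study's methods call independent. Each group filled a slide of its own, hence treatment and slide cannot be told apart, and a replicate number is a position on its slide. The question was which of these genes differed between adult oviducts of Gen-treated mice and controls.

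MMPs are secreted or membrane-bound zinc proteases that cut collagens, proteoglycans and other matrix proteins, and most are made as inactive precursors. TIMPs bind the active site of MMPs and, in the case of Timp3, of several ADAMs and ADAMTS enzymes as well. ADAMs are membrane proteins, of which some shed growth factors, cytokines and receptors from the cell surface and others act in sperm. ADAMTS enzymes are secreted and cut proteoglycans and procollagens, whereas ADAMTS-like proteins share their outer domains without the protease. In the female tract this system is best known for ovulation, menstruation and the remodelling of the uterus around implantation.

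The arrays differed in how much they detected. A probe was counted as detected on an array where the scanner software called it well above background, which held for 25412 to 28969 probes on the control arrays and for 29554 to 31498 on the Gen arrays. Probes detected nowhere had a median unscaled signal of 6.48 to 11.9 on the control arrays and of 3.39 to 6.24 on the Gen arrays, so they read lower in Gen as a class. Members were therefore split by detection: 47 were detected on all 8 arrays, 21 on 1 to 7 arrays and 7 on none. Markers of the labelled tissue were present, as all 6 oviduct epithelium genes, among them Ovgp1, Foxj1 and Pax8, were detected on every array.

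Among the 47 members detected on all 8 arrays, Adam28 and Mmp11 rose and Mmp10, Adamts16 and Adamtsl2 fell in Gen-treated mice at an adjusted p under 0.05 (limma, Benjamini-Hochberg over 41173 probes). That is 2 of 47 higher (4.26%) and 3 of 47 lower (6.38%). Over all 16931 genes detected on 8 arrays the same call was made for 2.21% as higher and for 2.41% as lower, so the members' shares rest on 2 and 3 genes. The adjustment included undetected probes, and 64.8% of undetected genes were called lower. With only probes that all 4 arrays of either group detected, the 5 had an adjusted p of 0.0543 to 0.0895 by limma. Then 0 of the 47 members were called, beside 189 of the 16931 genes. Values written with ± are log2 fold changes, Gen minus control, with their SE from limma, and the adjusted p beside them is from the same fit. The groups did not overlap for 4 members that were higher and 5 that were lower, 8.51% and 10.6% of the 47, against 5.49% and 6.9% of all such genes. The median log2 fold change of the 47 was -0.03, that of all such genes 0.01, and 23 members lay above 0 and 24 below. The 4 whose groups did not overlap without a call were Adamts19 and Adamtsl4, higher in Gen, and Adamtsl3 and Timp3, lower in Gen. Since whole oviducts were measured, fewer cells of a type and less RNA per cell cannot be told apart.

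**Figure D1:**
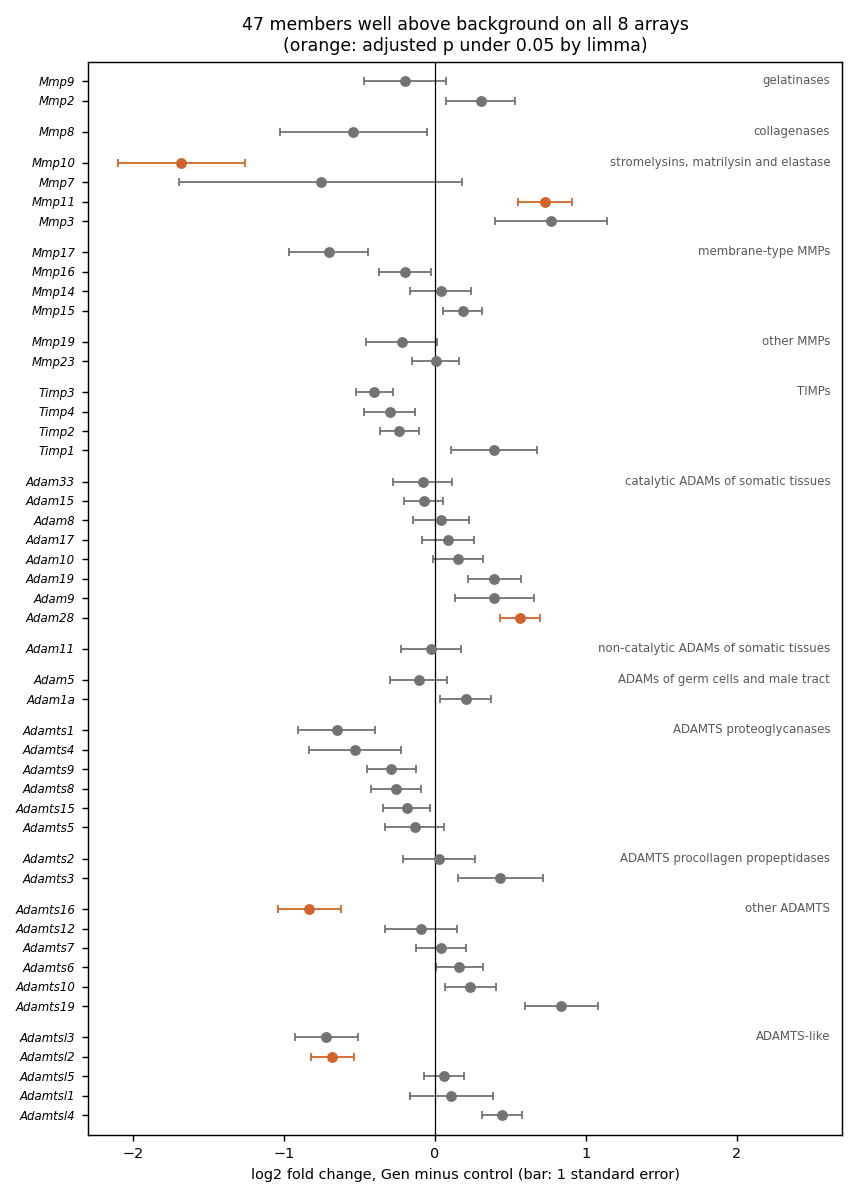
Log2 fold change, Gen minus control (x axis), of the 47 members detected on all 8 arrays, grouped by role; bars are 1 standard error from limma and orange marks an adjusted p under 0.05. Most members lie within 0.5 of 0 on the log2 scale, and Mmp10 at -1.68 lies farthest out.

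The values rest on 60-base probes, of which the first 30 bases are shown for the 5 called members and Timp3 to identify what each value reads. Positions are those of the array design in mouse build mm7, and exons and UTRs were not annotated here. Both Adam28 probes span more than 60 bases of genome and so cross a splice junction.
Adam28, brightest probe, chr14:63467908-63468649, minus strand: agaagtgtagaccccaaaaggtgaaggatg
Adam28, next brightest probe, chr14:63485693-63487808, minus strand: gtgccctgggggaatgctgtgagaaatgcc
Mmp11, chr10:75578932-75578991, minus strand: tagcacaggtaccctctaagccatgtacat
Mmp10, chr9:7508134-7508193, plus strand: acaaccctgtaaaatgagtctcatgacttc
Adamts16, chr13:67657286-67657345, minus strand: gatgggggctatgatatagggctttgcata
Adamtsl2, chr2:27115796-27115855, plus strand: cttccttggacacccactctgcaggggatg
Timp3, chr10:85907162-85907221, plus strand: atagtgacttttggggatagatctgtctgg

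Of the stromelysins, a named group of MMPs, Mmp10 and Mmp11 changed in opposite directions. Mmp10 (stromelysin 2), which also activates other MMP precursors, had scaled signals (linear intensity after setting the arrays to a common 75th percentile) of 247, 227, 206 and 496 on control arrays 1 to 4 and of 115, 47.5, 152 and 65.7 on Gen arrays 1 to 4. The groups did not overlap, although control array 4 stood well above the other controls and Gen arrays 2 and 4 well below the other Gen arrays. Its geometric mean fell from 275 to 85.9 (log2 fold change -1.68, SE 0.42, adjusted p = 0.0293 by limma). Mmp11 (stromelysin 3), a stromal enzyme of tissue remodelling, gave 4838, 4968, 5453 and 6591 in controls and 9928, 11423, 7297 and 7926 in Gen. All Gen arrays lay above all controls, and Gen arrays 1 and 2 above Gen arrays 3 and 4. The mean rose from 5422 to 8999 (log2 fold change 0.73, SE 0.18, adjusted p = 0.0276 by limma). Mmp3 (stromelysin 1), the closest relative of Mmp10, had 493, 1272, 656 and 373 in controls and 1369, 1101, 1115 and 770.3 in Gen, with control array 2 inside the Gen range (log2 fold change 0.77, SE 0.37, adjusted p = 0.221 by limma).

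**Figure D2:**
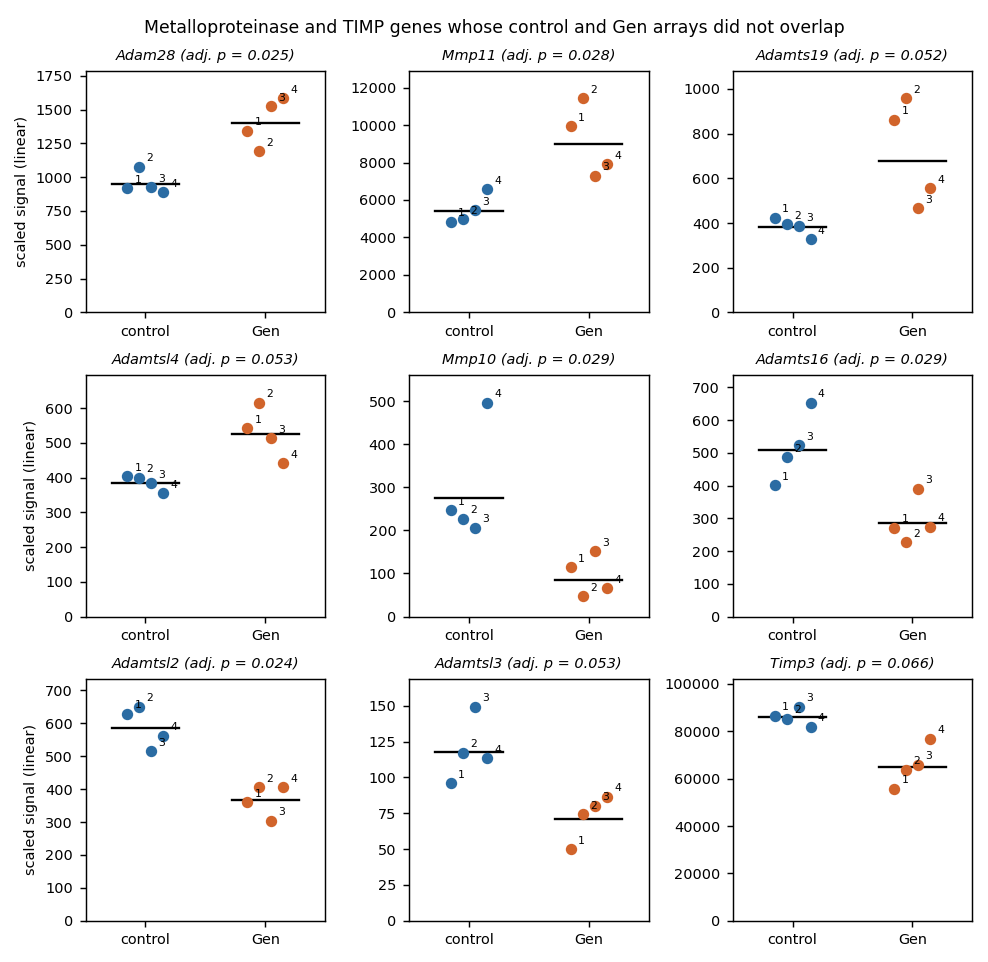
Scaled signal on a linear axis (y) for each control and Gen array of the 9 members detected on all 8 arrays whose groups did not overlap; small digits are replicate numbers and lines are geometric means of 4 arrays. Adam28, Mmp11, Adamts19 and Adamtsl4 were higher in Gen and the other 5 lower, with 4 of the 9 above an adjusted p of 0.05.

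The gelatinases, which cut denatured collagen and basement membrane collagen, gave no call. Mmp2 read 6219, 11134, 11541 and 12479 in controls and 11029, 13600, 13393 and 11522 in Gen (log2 fold change 0.30, SE 0.23, adjusted p = 0.438 by limma), and control array 1 stood far below the other 7 arrays. Mmp9 ranged over 553 to 1216 in controls and 539 to 939 in Gen (-0.20 ± 0.27, adjusted p = 0.685), and its other probe gave -0.30 ± 0.35 (adjusted p = 0.622). Mmp8, the neutrophil collagenase, was the collagenase detected on all arrays, with 1361 to 2189 in controls and 622 to 3622 in Gen (-0.54 ± 0.49, adjusted p = 0.521), where Gen array 3 was the highest of all 8 and Gen array 2 the lowest. Of 7 neutrophil markers, Elane was detected on no array, and the other 6 were not called. Camp and Ngp were highest on Gen array 3, as Mmp8 was, with Camp at 121 to 169.9 in controls and 93.8 to 618 in Gen, whereas S100a8, S100a9 and Mpo were highest on control array 3, with S100a9 at 336 to 24568 and 3637 to 15362. Mpo lay at -0.60 and Ltf at 0.37 on the log2 scale, and the part of these cells in Mmp8 was not tested.

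Mmp7 (matrilysin), a small MMP made by glandular epithelia, was the most variable of the 47 members detected on all arrays. It had 294, 4467, 4943 and 2092 in controls and 2531, 1171, 1331 and 424 in Gen, so that a control array was the lowest and another control array the highest. Its within-group SD of 1.53 on the log2 scale exceeded that of 99.8% of genes detected on 8 arrays, and its log2 fold change of -0.76 was smaller in size than its SE of 0.94 (adjusted p = 0.651). That fold change rested on single arrays, being -1.66 ± 0.61 (adjusted p = 0.127) without control replicate 1 and -0.28 ± 0.99 (adjusted p = 0.899) without Gen replicate 4. Among the 47, Mmp8, Mmp10 and Mmp3 followed it in spread, with SDs of 0.79, 0.67 and 0.59, against a median of 0.27 over the 47 members and 0.22 over all such genes.

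These 4 variable genes are neighbours. The probes of Mmp13, Mmp12, Mmp3, Mmp1a, Mmp10, Mmp8, Mmp20 and Mmp7 lie in this order within 415 kb of chromosome 9 (7280046 to 7695493, mm7). Only Mmp10 was called among the 4 detected on all arrays, with Mmp3 above 0 and Mmp10, Mmp8 and Mmp7 below. Mmp13, the other rodent collagenase, was detected on 3 control and 4 Gen arrays at -0.01 ± 0.35 (adjusted p = 0.987). Mmp12 (macrophage elastase) and Mmp1a were each detected on a single Gen array, Mmp12 at 53.4 on Gen array 2 and Mmp1a at 65.7 on Gen array 4, and Mmp20 (enamelysin of teeth) on none.

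**Figure D3:**
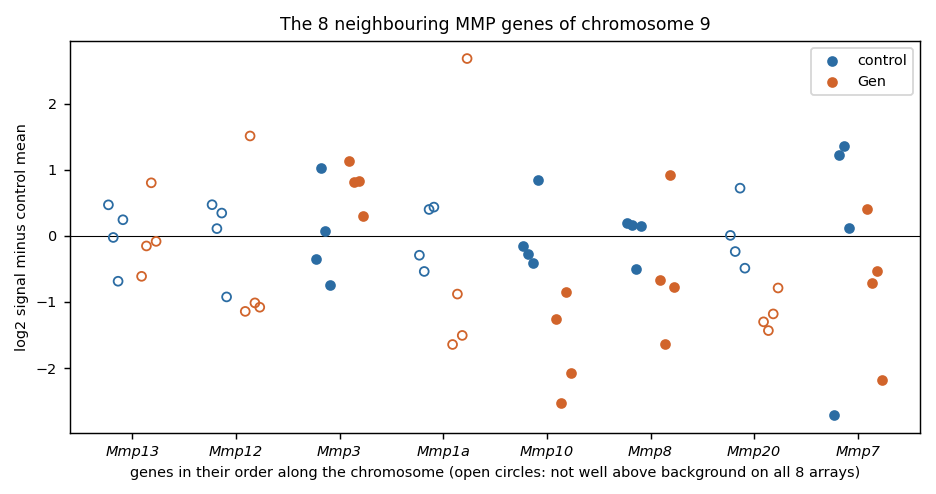
Log2 signal of each array minus the control mean (y) for the 8 MMP genes of chromosome 9 in their order along it (x); filled circles are genes detected on all 8 arrays and open circles are the others. The Gen arrays of Mmp10 lie below all its controls, while those of Mmp3, Mmp8 and Mmp7 overlap with their controls.

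MMP genes of this cluster are textbook targets of the transcription factor AP-1, so the 250 bases before each start in RefSeq (GRCm38.p6) were searched for its motif. The motif was taken in a loose form, TGANTCA with any base at N, which reads the same on both strands. Of the 10 promoters listed for these 8 genes, 7 held it, 1 for each of 7 genes, and Mmp8 had none. The match read TGAATCA in Mmp20, TGACTCA in Mmp13 and TGAGTCA in the others that held it. Over all 32851 promoters in the table the share was 6.75%, and over the 40 promoters of members outside the cluster 7.5%. The promoter table matched 45 of the 75 members. The motif was thus shared by Mmp10, which fell, and by Mmp3 and Mmp7, which were not called. The last 120 bases before the start, plus strand, are shown for 6 of the genes with the motif in capitals.
Mmp13, chr9:7272394-7272513: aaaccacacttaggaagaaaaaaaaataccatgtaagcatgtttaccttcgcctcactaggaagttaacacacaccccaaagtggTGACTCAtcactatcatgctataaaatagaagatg
Mmp3, chr9:7445702-7445821: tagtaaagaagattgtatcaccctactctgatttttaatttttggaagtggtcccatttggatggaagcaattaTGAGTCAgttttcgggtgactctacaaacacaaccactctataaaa
Mmp1a, chr9:7464021-7464140: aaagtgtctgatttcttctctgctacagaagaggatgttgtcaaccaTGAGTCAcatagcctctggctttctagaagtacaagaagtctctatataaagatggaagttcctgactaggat
Mmp10, chr9:7502222-7502341: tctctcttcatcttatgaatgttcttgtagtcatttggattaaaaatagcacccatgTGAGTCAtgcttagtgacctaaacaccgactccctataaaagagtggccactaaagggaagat
Mmp8, chr9:7558309-7558428: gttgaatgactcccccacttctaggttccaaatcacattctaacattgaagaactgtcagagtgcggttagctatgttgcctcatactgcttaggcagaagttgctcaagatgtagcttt
Mmp7, chr9:7691970-7692089: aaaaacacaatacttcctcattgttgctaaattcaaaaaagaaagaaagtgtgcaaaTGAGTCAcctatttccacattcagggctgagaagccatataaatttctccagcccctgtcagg
The motif starts between 35 and 73 bases before the start in the 5 of these that hold it, at 63 bases in both Mmp10 and Mmp7. A match of letters says nothing of binding, and factor binding was not measured here.

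Membrane-type MMPs, which act at the cell surface, gave no call, and Mmp17 lay lowest. Mmp14, which activates the Mmp2 precursor, had 43347 to 58161 in controls and 39266 to 66639 in Gen (log2 fold change 0.04, SE 0.20, adjusted p = 0.924 by limma). Mmp17, anchored by a glycolipid, had 3538, 7022, 5299 and 4444 in controls and 3204, 4223, 2266 and 2709 in Gen, with 1 Gen array inside the control range (log2 fold change -0.70, SE 0.26, adjusted p = 0.116 by limma). The second Mmp17 probe gave -0.83 ± 0.31 (adjusted p = 0.117). Mmp15 and Mmp16 gave 0.18 ± 0.13 (adjusted p = 0.398) and -0.20 ± 0.17 (adjusted p = 0.5), and Mmp24 and Mmp25 were not detected on all arrays. Of the other MMPs, Mmp19 and Mmp23 gave -0.22 ± 0.24 (adjusted p = 0.596) and 0.00 ± 0.16 (adjusted p = 0.99). Mmp28, an epithelial MMP, had 2 probes that differed in size, at 0.10 ± 0.26 (adjusted p = 0.84) for the brightest and 1.03 ± 0.34 (adjusted p = 0.0849) for the other, neither detected on all arrays.

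No TIMP was called, and 3 of the 4 lay below 0. Timp3, which is bound to the matrix and also inhibits Adam17, Adamts4 and Adamts5, came nearest. It read 86661, 85288, 90344 and 81979 in controls and 55710, 63817, 65820 and 76829 in Gen. All Gen arrays lay below all controls, the controls being close together (log2 fold change -0.40, SE 0.12, adjusted p = 0.0663 by limma). The exact 2-sided permutation test over the 70 ways to split 8 arrays gave p = 0.0286 for Timp3, the smallest that 4 against 4 allows. Groups that do not overlap always give this value, so it adds nothing to the lack of overlap. Of all genes detected on 8 arrays, 5.49% were higher and 6.9% lower in Gen without overlap. Timp2, the partner of Mmp14 in activating Mmp2, ranged over 102142 to 125804 in controls and 87149 to 110340 in Gen (-0.24 ± 0.13, adjusted p = 0.279), and Timp4 over 14305 to 18364 and 10564 to 17265 (-0.30 ± 0.17, adjusted p = 0.303). Timp1, a soluble inhibitor raised in many tissues under remodelling, had 4371, 4089, 4717 and 3702 in controls and 5814, 7784, 3015 and 6771 in Gen. Gen arrays 1, 2 and 4 were above every control and Gen array 3 below every control (log2 fold change 0.39, SE 0.28, adjusted p = 0.42 by limma), and its 2 other probes gave 0.62 ± 0.29 (adjusted p = 0.206) and 0.54 ± 0.29 (adjusted p = 0.273).

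Adam28, a protease first known from lymphocytes, was the member that rose among the catalytic ADAMs of somatic tissues. It had 919.6, 1077, 925 and 888 in controls and 1342, 1191, 1526 and 1582 in Gen, with no overlap, and its mean went from 949.6 to 1402 (log2 fold change 0.56, SE 0.13, adjusted p = 0.025 by limma). The next brightest probe, in another stretch of the gene, also rose, with 566 to 683 in controls and 834 to 976 in Gen (0.53 ± 0.11, adjusted p = 0.0236), and the remaining probe was detected on no array. Adamdec1, a soluble ADAM-like protease of macrophages and dendritic cells that the naming rule leaves out, lies beside it: the probes of Adam7, Adamdec1 and Adam28 fall within 143 kb of chromosome 14 in mm7. Adamdec1 rose as well, from 5934, 3778, 4716 and 3279 in controls to 6565, 7603, 7517 and 11381 in Gen (log2 fold change 0.91, SE 0.24, adjusted p = 0.0349 by limma), whereas Adam7, an epididymal gene, was detected on 1 array. The call of Adamdec1 held in 5 of the 21 alternative settings.

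The main sheddases gave no call. Adam10 had 171 to 237 in controls and 190.3 to 281 in Gen (0.15 ± 0.17, adjusted p = 0.596), and Adam17, which releases tumor necrosis factor and EGF receptor ligands, 2644 to 4246 and 3271 to 4175 (0.09 ± 0.17, adjusted p = 0.783). Adam9 and Adam19 gave 0.39 ± 0.26 (adjusted p = 0.382) and 0.39 ± 0.17 (adjusted p = 0.184), Adam11, a non-catalytic ADAM of nerve tissue, gave -0.03 ± 0.20 (adjusted p = 0.947), Adam8, known from leukocytes, 0.04 ± 0.19 (adjusted p = 0.907) and Adam15 -0.08 ± 0.13 (adjusted p = 0.747). Adam33, a gene of smooth muscle and mesenchyme, gave -0.08 ± 0.20 (adjusted p = 0.826) at its brightest probe while a dimmer probe was called at -0.54 ± 0.13 (adjusted p = 0.0252), so that 1 of its 3 probes was called. Of the 19 members with 2 or more probes detected on all arrays, all probes of 15 had the same sign.

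ADAMs of germ cells and the male tract were mostly near or below detection, as 2 of 16 were detected on all arrays, namely Adam1a (0.20 ± 0.17, adjusted p = 0.487) and Adam5 (-0.11 ± 0.19, adjusted p = 0.75). Adam29 and Adam6 were called lower at the edge of detection. Adam29 was detected on control arrays 1 and 4, at 41.2 and 34.4 and on no Gen array (adjusted p = 0.0236 by limma). Adam6 was detected on control array 4 alone, at 44.6 (adjusted p = 0.0312). No fold is given for either, because most of the arrays behind it, controls included, were not above background. They were 2 of 21 members detected on 1 to 7 arrays, against 2.64% of all such genes called lower and 5.33% called higher. Adamts13, Mmp20 and Mmp21 were also called lower but detected on no array, 3 of 7 such members, beside 64.8% of all genes detected on no array that were called lower and 0 called higher. No fold is given for these 3, whose signals moved as undetected probes did. The other undetected members were Adam22, Adam24, Adam32 and Adamts20, none of them called. The other 19 members detected on 1 to 7 arrays, none called, included Adam2 (detected on 1 control array), Adam30 (detected on 2 Gen arrays), Adam12, Adam23 and Adamts18.

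**Figure D4:**
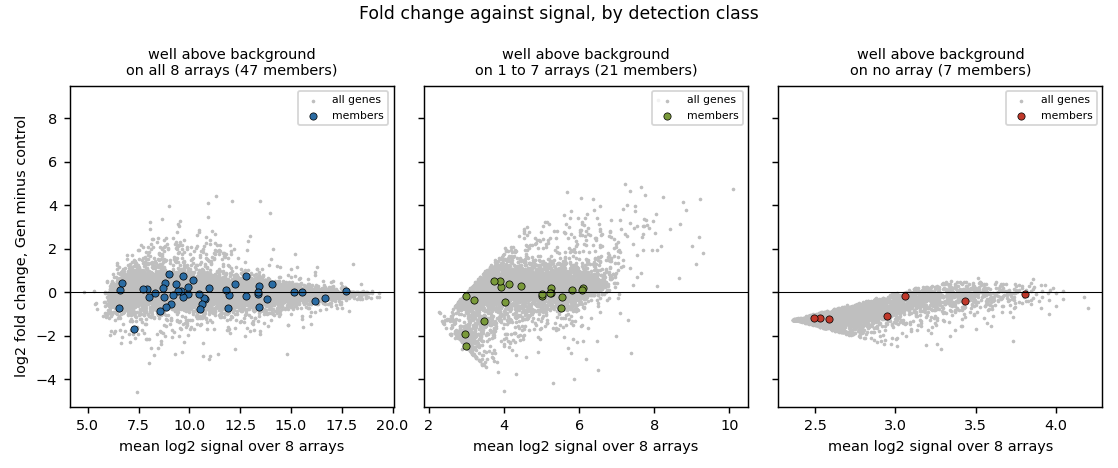
Log2 fold change, Gen minus control (y), against mean log2 signal over 8 arrays (x), for genes detected on all 8, 1 to 7 or no arrays; grey points are all genes and coloured points the 47, 21 and 7 members. Undetected genes lie almost wholly below 0, and the 7 undetected members lie among them.

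The ADAMTS proteoglycanases, which cut versican and aggrecan, all lay on the lower side without a call at their brightest probes. All 6 detected on every array were below 0, with a median log2 fold change of -0.27. With no scaling between arrays, which shifts the median of all detected genes to 0.25, 4 of the 6 were below 0, and under the 3 other scalings or background corrections all 6. Adamts1, induced at ovulation in the follicle, read 21868, 12298, 12518 and 11122 in controls and 6823, 11359, 10025 and 7938 in Gen, with the lowest control just inside the Gen range (log2 fold change -0.65, SE 0.25, adjusted p = 0.135 by limma). Its other probe had 966 to 1704 in controls and 510.5 to 835 in Gen, without overlap, and was called (-0.89 ± 0.23, adjusted p = 0.0364). Adamts4 gave -0.53 ± 0.31 (adjusted p = 0.308), Adamts5 -0.13 ± 0.19 (adjusted p = 0.703), Adamts8 -0.26 ± 0.17 (adjusted p = 0.367), Adamts9 -0.29 ± 0.16 (adjusted p = 0.302) and Adamts15 -0.19 ± 0.16 (adjusted p = 0.49), while Adamts20 was detected on no array.

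Of the other ADAMTS genes, Adamts16 fell. This protease, known from kidney and gonads, had 401, 486, 524 and 653 in controls and 271, 228, 389.9 and 274 in Gen. The highest Gen array lay just under the lowest control, and the mean went from 508 to 285 (log2 fold change -0.83, SE 0.21, adjusted p = 0.0292 by limma), with the second probe detected on 1 array. Adamts19, a gene of developing gonads and heart valves, had 423, 393, 384 and 328 in controls and 862, 958, 465 and 557 in Gen, Gen arrays 1 and 2 being the highest and Gen array 3 only just above the controls (log2 fold change 0.84, SE 0.24, adjusted p = 0.0519 by limma). Its second probe was called (1.05 ± 0.26, adjusted p = 0.03). The procollagen propeptidases Adamts2 and Adamts3, which trim fibrillar procollagens, gave 0.03 ± 0.24 (adjusted p = 0.96) and 0.43 ± 0.28 (adjusted p = 0.369), and Adamts6, Adamts7, Adamts10 and Adamts12 lay between -0.09 and 0.23.

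Among the ADAMTS-like genes, Adamtsl2 fell and kept its call in more alternatives than the other 4 called members. Adamtsl2, a matrix protein of fibrillin microfibrils, had 629, 650.0, 515 and 563 in controls and 361, 405, 304 and 405 in Gen. The groups were well apart, and the mean went from 587 to 366 (log2 fold change -0.68, SE 0.14, adjusted p = 0.0236 by limma). Adamtsl3, another secreted matrix protein, had 96.0, 117, 149 and 113 in controls and 50.0, 74.6, 80.3 and 86.4 in Gen (log2 fold change -0.72, SE 0.21, adjusted p = 0.0533 by limma). Adamtsl4, also tied to microfibrils, gave 404, 400.3, 384 and 356 in controls and 542, 616, 513 and 442 in Gen (log2 fold change 0.44, SE 0.13, adjusted p = 0.053 by limma). For both genes the groups did not overlap and the adjusted p narrowly missed the threshold. Adamtsl1 and Adamtsl5 gave 0.11 ± 0.28 (adjusted p = 0.836) and 0.06 ± 0.13 (adjusted p = 0.804).

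Of 36 other genes of the pathway, Adamdec1 and Mmel1 rose, 2 of the 28 detected on all arrays (7.14%, against 2.21% of all such genes). Spock1 fell, 1 of 6 detected on 1 to 7 arrays (against 2.64%), and Mep1b was called lower but detected on no array, where 64.8% of genes were. With only probes that all 4 arrays of either group detected, Adamdec1 and Mmel1 lost their calls (adjusted p = 0.0962 and 0.115 by limma). In that setting Spock1 kept its call (adjusted p = 0.0413 by limma). Spock1 (testican 1), a proteoglycan listed among MMP inhibitors, had 319, 130.4, 109 and 99.5 in controls and 40.1, 14.4, 27.9 and 12.2 in Gen, where it was detected on 2 arrays (log2 fold change -2.79, SE 0.49, adjusted p = 0.0236 by limma). The size is uncertain, since the other 2 Gen arrays were not above background, and was -1.51 ± 0.25 (adjusted p = 0.0384) with the normexp background correction. Every Gen array lay below every control. Mmel1, a relative of neprilysin, had 375, 404, 1666 and 338 in controls and 13176, 3479, 1172 and 3276 in Gen, with control array 3 above Gen array 3 (log2 fold change 2.75, SE 0.78, adjusted p = 0.0478 by limma), and without Gen replicate 1 it gave 2.13 ± 0.66 (adjusted p = 0.0798). None of the 11 activators and plasminogen system genes was called, among them Furin (0.09 ± 0.15, adjusted p = 0.753), Plat (-0.34 ± 0.22, adjusted p = 0.368), Plau (0.36 ± 0.30, adjusted p = 0.486) and St14 (-0.34 ± 0.13, adjusted p = 0.113), nor was the membrane inhibitor Reck (-0.01 ± 0.21, adjusted p = 0.979) or the Adam17 carriers Rhbdf1 and Rhbdf2.

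Markers of other cells also differed between the groups. Of 7 macrophage genes, all detected on every array, Itgam and Adgre1 were called higher (0.74 ± 0.13, adjusted p = 0.0236, and 0.66 ± 0.15, adjusted p = 0.0246), against 2.21% of all such genes. Cd68, Csf1r, Lyz2 and Mrc1 lay above 0 and Cd14 below (-0.26), all without a call. The summed signal of the list, most of it from Lyz2, was 129597 to 194358 in controls and 173547 to 228506 in Gen. Of 8 genes of ovarian granulosa and steroidogenic cells, 5 were called higher, Cyp11a1 by 4.43 on the log2 scale. Among the 4 detected on all arrays 3 were called, against 2.21% of all such genes. The others called, Cyp19a1 and Lhcgr, were detected on no control array. They belong to the genes detected on 1 to 7 arrays, of which 5.33% were called higher. With the test limited to probes that all 4 arrays of either group detected, Itgam kept its call (adjusted p = 0.0413), while Adgre1 (0.07), Cyp11a1 (0.0683), Hsd3b1 (0.0751), Inha (0.0946) and Lhcgr (0.09) lost it and Cyp19a1 was left out. The summed signal of the 8 ovarian genes, in which bright probes such as that of Hsd3b1 weigh most, was 3256 to 28211 in controls and 31807 to 140653 in Gen. Gen arrays 1 and 2 were above the other 6 arrays for 6 of these 8 genes, the exceptions being Cyp19a1 and Fshr, and for 5 of 5 oocyte genes. They were also above the other 6 for Mmp11, Adamts19, Adamtsl4, Adamts7 and Mmel1. How many of all genes have this array order was not counted. Control array 3 was the highest control for 4 of the 8, among them Cyp11a1, and carried the outlying Mmel1 control value, while Adamts19 read 384 there, inside the control range. For Adam28, Gen arrays 3 and 4 were the highest. Oocyte genes lay above 0 in 5 of 5 without a call, and 6 of 6 smooth muscle genes below 0 without a call, with a median of -0.26. Fibroblast genes had no call in 6. The part of these cells in the values of Adam28, Adamdec1, Mmp11, Adamts19, Adamtsl4, Adamts7 and Mmel1 and of Mmp10, Adamts16 and Adamtsl2 was not tested.

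All 5 calls were lost in some settings. With the test limited to the 28978 probes that all 4 arrays of either group detected, none of the 5 was called and their adjusted p lay between 0.0543 and 0.0895, since undetected probes no longer added low p-values to the adjustment. In that setting 321 of the 28978 probes were called. Of all 16931 genes detected on 8 arrays 189 were called, against 0 of the 47 members. The alternatives that recompute the fold change, 13 or 14 of the 21 depending on the gene, kept its sign for all 5, and the others leave it as it is. The call held in 10 of 21 for Adamtsl2, 7 for Mmp11, 6 for Adam28, 6 for Mmp10 and 4 for Adamts16. Without control replicate 1 or Gen replicate 1, 2 or 3 no member detected on all arrays was called, against 3, 2 and 2 without control replicate 2, 3 and 4 and 5 without Gen replicate 4. These losses ran over the whole array. Of 41173 probes, 97 were called without control replicate 1, and 3, 2 and 1 without Gen replicates 1, 2 and 3. Without control replicates 2, 3 and 4 the counts were 5703, 5812 and 7130, and without Gen replicate 4 the count was 6042.

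**Figure D5:**
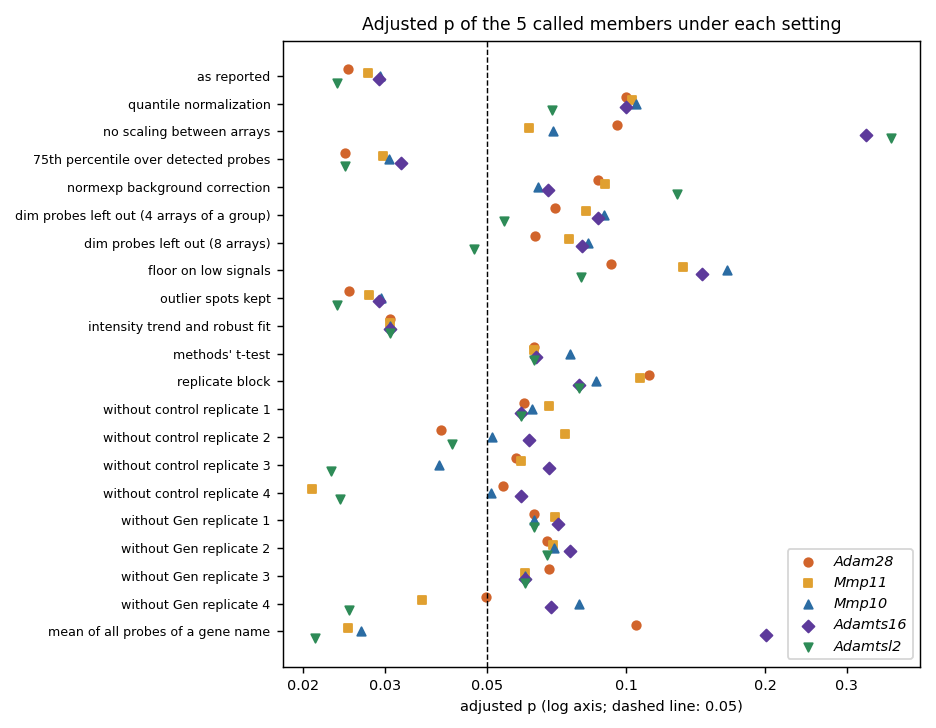
Adjusted p (x, log axis) of the 5 called members as reported and under each alternative setting (y); the dashed line is 0.05. All 5 lie left of the line as reported, and most settings that leave out an array, or the dim probes, move them to between 0.05 and 0.1.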

How the data were processed

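Oviduct RNA of 8 replicates was measured, 1 array each. The authors scanned the 4 x 44K Agilent arrays and made the deposited intensity values with Agilent Feature Extraction 9.5 (processed signal: background-adjusted, linear, not scaled between arrays). Precision is limited by 4 arrays per group. The deposited value table repeats these intensities and was not used. From the scanner values, 1639 control spots per array and outlier spots were left out, log2 signals of a probe's spots averaged, and each array scaled to the mean 75th percentile. Gen and control were compared with limma 3.58.1 (lmFit, eBayes; R 4.3.3) on 41173 probes, with Benjamini-Hochberg adjustment over all of them and a call at an adjusted p under 0.05. A gene was read by its brightest probe. All adjusted p printed are from limma, and the unadjusted p given for Timp3 is from the exact 2-sided permutation test. Symbols, where updated, came from RefSeq by accession (22951 probes matched). The fitting code was tested on simulated data.

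Genes named throughout were the TIMPs, 10 preset proteases and every called member or pathway gene detected on all 4 arrays of a group; others were named after their values were seen, to account for each family. The members, gene lists and tests were chosen with earlier results of these data known. The replicate numbers mark positions on a slide, and the labels tie no control mouse to a Gen mouse. The study's methods call the replicates independent. The 21 alternatives were other scalings, background correction, filters, thresholds, probe averaging, a replicate block and leaving out each array.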

Additional observations from a re-analysis of the deposited data

Results flagged for a closer look

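In the named genes, 2 of 42 groups of 4 arrays held an array far from the other 3 by Dixon's test at the 95% level, where chance gives about 1 in 20. The test used log2 signals, while the signals printed here are linear. The Mmp2 signal of control replicate 1 was 6219, against 11134 to 12479 in the other controls. The Mmel1 signal of control replicate 3 was 1666, against 338 to 404 in the other controls.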

How the results depend on the processing

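The 21 alternatives moved counts of calls more than directions. As reported, 10 of 75 members, 5 of the 47 detected on all arrays, and 4 of 36 other pathway genes were called. Quantile normalization, the floor on low signals, the methods' t-test and the replicate block each gave 0, 0 and 0 calls. The normexp correction, and leaving out probes not detected on all 4 arrays of a group, gave 0, 0 and 1. No scaling between arrays gave 1, 0 and 2, and testing only probes detected on all 8 arrays gave 1, 1 and 0. Calls over the whole array fell too, so these losses were not particular to the members. Of 41173 probes, 6674 were called as reported and 178 with quantile normalization. The floor gave 57, the t-test 0, the replicate block 1, normexp 251 and no scaling 640. With dim probes left out, 321 of 28978 (4 arrays of a group) and 311 of 24957 (8 arrays) were called. An unadjusted p under 0.01 by limma gave 8 of the 47, beside 910 of all 16931 genes detected on 8 arrays. Under the methods' t-test 10 of 75 members were below it before adjustment. In the settings with 0 calls among the 75, from 12 to 15 members had an unadjusted p under 0.05 by limma or the t-test. As reported, 17 of the 75 members were under 0.05 by limma, and so were 8211 of all 27961 genes, undetected ones included. Among genes detected on 8 arrays these were 11 of the 47 members and 2604 of 16931. The shares over all genes in the other settings are not given here. Leaving out 1 array gave 0 to 10 members, 0 to 5 of the 47 and 0 to 4 pathway genes. Counts were 0 without control replicate 1 or Gen replicate 1, 2 or 3, where 17 to 20 of the 75 members had an unadjusted p under 0.05. In those fits 97, 3, 2 and 1 of all 41173 probes were called. Without control replicates 2, 3 and 4 and Gen replicate 4, 8, 6, 7 and 10 members were called, beside 5703, 5812, 7130 and 6042 probes. The replicate block was not a pairing of animals: over 24930 probes, deviations of same-numbered arrays correlated at -0.0794, 0.105, -0.0207 and -0.184, and 0 of 4 control arrays matched best with the Gen array of its own number. Of the 47 members, 11 turned in direction without scaling, 4 with normexp, 6 with probes averaged and 2 to 7 on leaving out an array, none of them called. Among the members named by rule these were: without scaling, Timp2 (0.00405), Mmp9 (0.0414) and Adamts5 (0.11); with probes averaged, Mmp14 (-0.0472) and Adam17 (-0.0225); with normexp, Adam10 (-0.0711); and on leaving out an array, Mmp14 (-0.11 to 0.14) and Adam17 (-0.0427 to 0.19). Why calls were lost under scaling and background settings was not tested. Signal over background limits the 28 members not detected on all arrays, and the signals and folds given for some of them are uncertain.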
